A study of Capra hircus with 2 samples.

Results

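The 5 genes LOR, KRTDAP, DMKN, EVPL and EPPK1, grouped as cornified envelope and differentiation genes, were followed from basal to granular keratinocytes in goat skin. They were chosen by symbol, and all 5 were found among the 27137 features of the deposited gene list. Each was described by its UMIs (unique molecular identifiers, each of which stands for 1 captured RNA molecule) per 10000 UMIs, in cells ordered by the levels of KRT10, a keratin of the suprabasal layers, and of LOR itself.

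Skin of the scapula was taken in anagen, the growth phase of the hair follicle, from healthy Liaoning cashmere goats, one with coarse fleece (the coarse type, CT-LCG) and one with fine fleece (the fine type, FT-LCG). Single cells were captured on the 10x Genomics Chromium platform, with 1 goat and 1 library for each type. Neither age nor sex of the goats is stated in the labels or methods used. Type, goat and library therefore cannot be told apart, no test between the types was possible, and the intervals below are 95% intervals that cover counting error only.

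The epidermis renews itself from a basal layer marked by KRT5 and KRT14. Cells that leave it enter the spinous layer, where KRT1 and KRT10 replace the basal keratins, and then the granular layer, where proteins are cross-linked under the plasma membrane into the cornified envelope. Loricrin, the product of LOR, is a major precursor of that envelope. KRTDAP (keratinocyte differentiation-associated protein) and DMKN (dermokine) are secreted by differentiating keratinocytes. EVPL (envoplakin) is a plakin that helps to found the envelope at desmosomes, and EPPK1 (epiplakin) is a plakin that binds keratin filaments.

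The authors kept 3443 of 6102 barcodes of CT-LCG and 9608 of 11197 barcodes of FT-LCG as cells. The libraries held 27890472 and 85400323 UMIs in these cells, with medians of 2314 and 6121.5 UMIs per cell. Cells with at least 2000 UMIs were ordered, which were 1839 and 6512 cells, and 11 barcodes occurred in both libraries. The basal stage (LOR under 5, KRT10 under 10, KRT5 and KRT14 together at least 50 per 10000 UMIs) held 103 cells of CT-LCG and 1991 of FT-LCG. With LOR under 5, the KRT10-low stage (KRT10 of 10 to under 50) held 511 and 1302 cells, the KRT10-middle stage (50 to under 200) 465 and 873, and the KRT10-high or spinous stage (200 or more) 675 and 1709. The LOR-positive or granular stage (LOR of at least 5 and KRT10 of at least 10) held 20 and 166 cells, so every granular value of CT-LCG rested on 20 cells.

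The stages were checked against markers that did not define them. In the LOR-positive stage the 8 granular markers measured, such as CST6 and CNFN, summed to 549 (CT-LCG) and 1249 (FT-LCG) UMIs per 10000, against 103 and 126 in the KRT10-high stage. Most of these LOR-positive sums came from CST6 (337 and 1034) and SBSN (161 in each), and 1 of the 8 markers was at 0 in CT-LCG. The sums did not climb steadily, since the KRT10-middle stage lay above the KRT10-high stage at 133 and 219 (CST6 at 53.5 and 155 against 7.75 and 47.5). KRT10 therefore does not by itself order all cells from basal to granular. Basal markers in the LOR-positive cells summed to 5.83 and 57.1, against 19.9 and 64.6 in KRT10-high cells, so in FT-LCG they were not low. As a mean over FT-LCG cells KRT14 was 53.1 against 43.9 and KRT5 42.1 against 31.7. In the 94 cells with LOR of 5 to under 20 they were 80.3 and 65.1. The FT-LCG stage is therefore not shown to be granular throughout. Markers of cell types other than epidermal were low in the LOR-positive cells but not all absent. All 5 mast cell markers were at 0 in both libraries, and of 5 T cell markers 5 and 4 were. Of 7 fibroblast markers only 1 was at 0 in each library, with sums of 0.366 and 0.145 per 10000 against 0.0635 and 0.0676 in KRT10-high cells. Smooth muscle markers summed to 0.0406 and 0.427 (5 and 0 of 6 at 0) and endothelial markers to 0.0203 and 0.127 (5 and 1 of 6 at 0). Outer root sheath or bulge markers summed to 8.24 and 6.55, against 1.68 and 3.58 in KRT10-high cells. The part of these cells in the LOR-positive values was not tested. The KRT10-low stage was mixed, since 151 of its 511 cells in CT-LCG and 83 of its 1302 in FT-LCG carried markers of fibroblasts, endothelial cells or immune cells. Of the basal-like cluster described below, 69 cells of CT-LCG were in the basal stage and 125 in the KRT10-low stage. In FT-LCG these were 1008 and 489.

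In both libraries KRTDAP, DMKN, EVPL and EPPK1 rose between the basal and the KRT10-high stage, and LOR did not pass the limit. From the KRT10-high to the LOR-positive stage none of the 4 members other than LOR rose or fell by the limit, although KRTDAP and DMKN were higher in both libraries. With each cell thinned to 2000 UMIs DMKN turned lower in both (log2 ratios of -0.32 and -0.17) and KRTDAP in CT-LCG (-0.33, with 0.19 in FT-LCG); a thinned cell with 1 LOR UMI is counted as LOR-positive. A gene was called where its level differed at least 2-fold in the same direction in both libraries, with more than 3 UMIs on the higher side. By this rule 4 of 5 members were called higher in the KRT10-high than in the basal stage, where 5.7% of 9947 genes were called higher and 9.93% lower; these were the genes that reached 100 UMIs in both libraries. LOR was the member not called, and 0 members were called lower. Both stages admit only cells under the LOR limit, so the stage rule itself capped LOR on both sides. Its call therefore holds only for cells under that limit. With the late stage set by CST6 (below), the earlier stages had no LOR limit. From basal to KRT10-high cells of that order LOR went from 0.0647 to 0.404 in CT-LCG and from 2.10 to 3.82 in FT-LCG. The KRT10-low and KRT10-middle stages between held 4.02 and 23.0 in CT-LCG and 4.24 and 3.88 in FT-LCG. These values show no steady climb and rest on few cells. In CT-LCG 1 cell had 11937 of the 12200 LOR UMIs behind the 23.0, and another cell 1380 of the 1453 behind the 4.02. The basal stage of FT-LCG held 813 LOR UMIs in 1991 cells in the main order and 5373 in 1998 cells in this one. In the LOR-positive over the KRT10-high stage 0 of the 4 members other than LOR were called higher, against 3.09% of all genes, and 0 were called lower, against 6.05%. The median log2 ratio of the 5 members in the first comparison was 2.06 (CT-LCG) and 1.80 (FT-LCG), against -0.14 and -0.18 for all genes. The capped LOR is among these 5. In the second comparison the median of the 4 members was 0.35 and 0.32, and that of all genes was -0.38 and -0.27. Both comparisons share the KRT10-high cells.

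**Figure D1:**
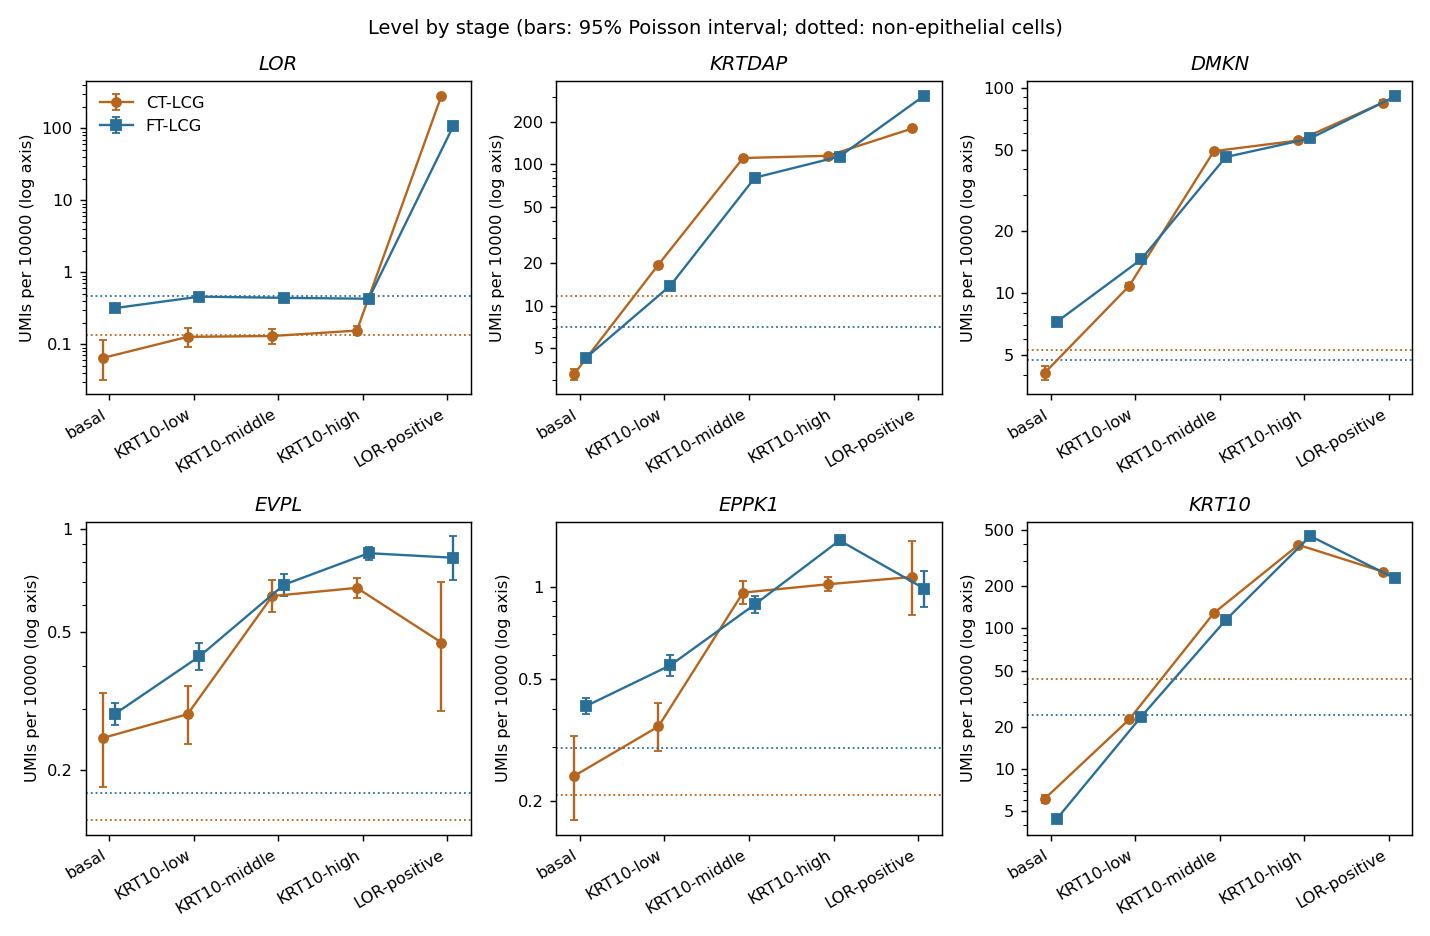
Level of each member in UMIs per 10000 (log axis) at each stage from basal to LOR-positive, for CT-LCG and FT-LCG; bars are 95% Poisson intervals and dotted lines mark the non-epithelial cells. KRTDAP and DMKN climb at the KRT10-middle stage (KRTDAP to 111 in CT-LCG and 80.6 in FT-LCG). LOR stays at 0.460 or under in the stages before the LOR-positive one, which admit only cells with LOR under 5.

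LOR was found almost entirely in a small number of cells. Before the LOR-positive stage its level in CT-LCG was 0.0647 UMIs per 10000 in basal cells, 0.127 in KRT10-low, 0.130 in KRT10-middle and 0.155 in KRT10-high cells. In FT-LCG the same stages stood at 0.319, 0.460, 0.442 and 0.430. The non-epithelial cells of the same libraries, which carried VIM and markers of fibroblasts, endothelial cells or immune cells, held LOR at 0.134 and 0.473 per 10000. They were not free of keratinocyte RNA, with KRT14 at 5.46 and 115 and KRT5 at 3.39 and 51.3. KRT10, which orders the stages, was at 43.7 and 24.4 in them (median cell 16.9 and 7.81). These pooled levels lie in the KRT10-low range of 10 to under 50. How far such background moved cells from the basal to the KRT10-low stage was not tested. In FT-LCG 42 of the 255 non-epithelial cells were also in the basal stage. Every stage before the LOR-positive one lay at or under the LOR level of the non-epithelial cells, except KRT10-high cells of CT-LCG at 0.155. These stages admit only cells with LOR under 5 per 10000, and the non-epithelial cells had no such limit. Part of this order of levels is therefore set by the selection. The ratio of the KRT10-high to the basal stage was 2.40 (1.31 to 4.87) in CT-LCG, where the basal stage held 11 LOR UMIs, and 1.35 (1.23 to 1.48) in FT-LCG. In the LOR-positive stage, which LOR itself defines, it reached 284 and 108 per 10000.

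The LOR total of a library depended on single cells. Of 14558 LOR UMIs in CT-LCG, 82.0% lay in 1 cell and 91.5% in 2 cells. Of 63140 in FT-LCG, 17.3% lay in 1 cell and 68.9% in 10 cells. The leading cell of CT-LCG had 11937 LOR UMIs among 121348, and the next had 1380 among 6846. Without these 2 cells the LOR-positive stage of CT-LCG (18 cells) held LOR at 18.8 per 10000. The leading cell also held 24.6% of all UMIs of that stage, so it weighs on the other members. Without the 2 cells the ratio to KRT10-high cells was 1.73 (1.69 to 1.77) for KRTDAP and 1.68 (1.62 to 1.74) for DMKN. For EVPL it was 0.857 (0.528 to 1.32) and for EPPK1 1.35 (0.996 to 1.79). The median LOR-positive cell had 13 and 16.5 LOR UMIs, and 4 of the 20 and 35 of the 166 cells had only 1 or 2.

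The 4 cells of FT-LCG with the most LOR UMIs carried little KRT10, and so did the second of CT-LCG. The leading cell of FT-LCG had 10941 LOR UMIs among 50690 and a KRT10 level of 0.592 per 10000, and the next 3 cells had KRT10 at 2.02, 3.34 and 2.73. These 4 were among 25 cells of FT-LCG that lay outside the ordered stages because LOR was at least 5 and KRT10 under 10. CT-LCG had 0 such cells, and its 5 cells with the most LOR UMIs had KRT10 at 119, 10.2, 435, 131 and 161, while the fifth of FT-LCG had 127. The second cell of CT-LCG had the highest LOR level of that library, at 2016 per 10000. With 7 KRT10 UMIs among 6846 it lay just above the KRT10 limit of 10. KRTDAP was still present in the first 4 cells of FT-LCG, at 93.3, 115, 255 and 29.6 per 10000, and DMKN at 32.2, 47.1, 80.8 and 26.6. EVPL was at 0 in the first 3 and EPPK1 at 0 in the first and the fourth.

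KRTDAP had the steepest climb of the members between the basal and the KRT10-high stage, and it was higher again in the LOR-positive cells. In CT-LCG its level was 3.26 UMIs per 10000 in basal, 19.5 in KRT10-low, 111 in KRT10-middle, 115 in KRT10-high and 180 in LOR-positive cells. In FT-LCG it was 4.26, 13.9, 80.6, 114 and 307. The level increased at every stage in both libraries, and non-epithelial cells held 11.6 and 7.12. The KRT10-high stage exceeded the basal stage 35.3-fold (32.5 to 38.4) in CT-LCG and 26.7-fold (26.2 to 27.2) in FT-LCG. The step from basal to KRT10-low was 5.99-fold and 3.25-fold, that to KRT10-middle 5.68-fold and 5.82-fold, and the step from KRT10-middle to KRT10-high was 1.04-fold and 1.41-fold. The LOR-positive stage exceeded the KRT10-high stage 1.56-fold (1.53 to 1.59) and 2.69-fold (2.67 to 2.72), so only FT-LCG passed 2-fold.

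DMKN followed the same order with a smaller range. Its levels in CT-LCG were 4.09, 10.8, 49.1, 55.4 and 84.7 UMIs per 10000 from the basal to the LOR-positive stage. In FT-LCG they were 7.23, 14.6, 46.0, 56.7 and 90.7. The LOR-positive stage was again the highest in both libraries, and non-epithelial cells stood at 5.30 and 4.72, close to or under the basal stage. The KRT10-high over basal ratio was 13.6 (12.6 to 14.6) in CT-LCG and 7.85 (7.73 to 7.97) in FT-LCG. The step from KRT10-low to KRT10-middle accounted for 4.53-fold and 3.15-fold, and the LOR-positive stage was 1.53-fold (1.48 to 1.58) and 1.60-fold (1.58 to 1.62) above the KRT10-high stage.

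EVPL was sparse, and its levels in the KRT10-high and LOR-positive stages did not differ beyond counting error. In CT-LCG it was measured at 0.247, 0.289, 0.637, 0.673 and 0.467 UMIs per 10000 from the basal to the LOR-positive stage. FT-LCG gave 0.290, 0.426, 0.687, 0.848 and 0.823. The KRT10-high stage had the highest value in both libraries, and the non-epithelial cells were below every stage at 0.142 and 0.171. KRT10-high exceeded basal cells 2.72-fold (2.00 to 3.81) and 2.93-fold (2.69 to 3.19). The LOR-positive over KRT10-high ratio was 0.694 (0.438 to 1.05) in CT-LCG, from 23 EVPL UMIs, and 0.970 (0.828 to 1.13) in FT-LCG, and both intervals hold 1.

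EPPK1 also rose with KRT10. Its levels were 0.241, 0.350, 0.957, 1.02 and 1.08 UMIs per 10000 in CT-LCG, and 0.408, 0.554, 0.876, 1.42 and 0.986 in FT-LCG. Levels were lowest in basal cells in both libraries, where they were close to the 0.210 and 0.298 of the non-epithelial cells. The KRT10-high over basal ratio was 4.22 (3.10 to 5.91) and 3.47 (3.24 to 3.73). The LOR-positive over KRT10-high ratio was 1.06 (0.788 to 1.39) in CT-LCG, from 53 EPPK1 UMIs, and 0.697 (0.605 to 0.800) in FT-LCG, so the granular stage was lower in FT-LCG only and by less than 2-fold.

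**Figure D2:**
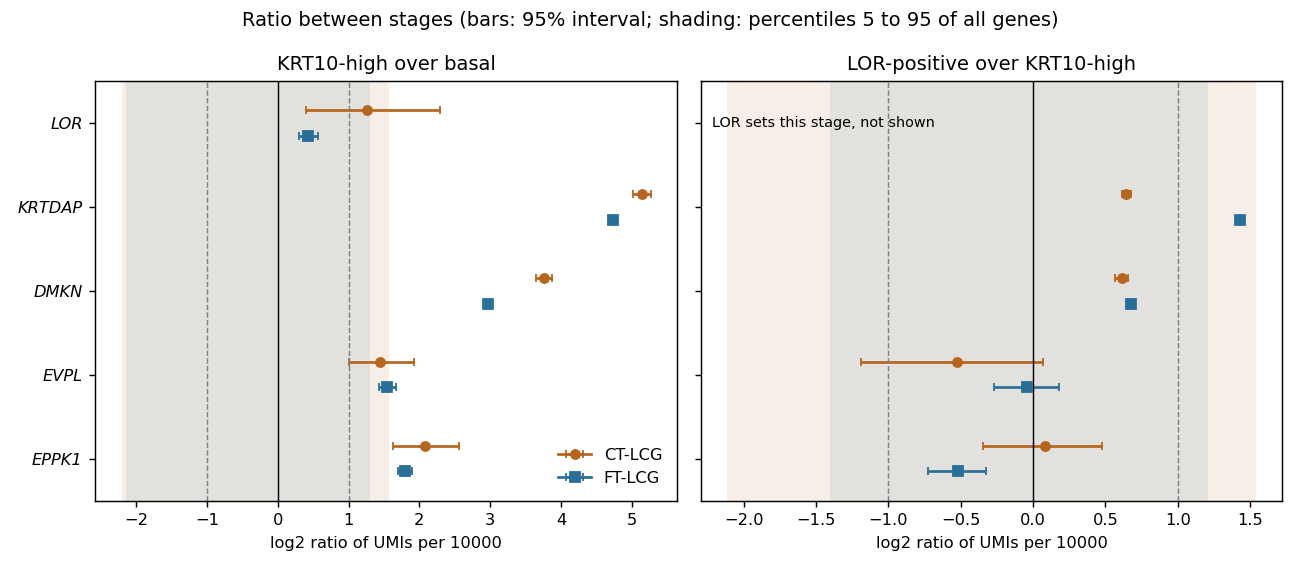
Log2 ratio of the level in the KRT10-high over the basal stage and in the LOR-positive over the KRT10-high stage for each member and library; bars are 95% intervals and shading spans percentiles 5 to 95 of all 9947 genes. KRTDAP, DMKN and EPPK1 lie beyond the shading in the first comparison in both libraries, and EVPL and EPPK1 lie near 0 or below it in the second.

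The order was read as early or late from the first stage at which a gene reached 50% of its highest stage level. LOR was late in both libraries, by construction of the order. DMKN and EPPK1 reached 50% at the KRT10-middle stage in both libraries. EVPL reached it at the KRT10-middle stage in CT-LCG and the KRT10-low stage in FT-LCG, and so was early too. For DMKN the KRT10-middle level was 58.0% and 50.7% of the highest, just past the limit, and granular-like cells of the clusters described below (239 of 873 cells in FT-LCG) held 31479 of its 49069 UMIs at that stage, against 12888 of 25976 in 75 of 465 cells of CT-LCG. Its early class thus rested in part on cells of that cluster. KRTDAP was placed in neither class, because it reached 50% at the KRT10-middle stage in CT-LCG and only at the LOR-positive stage in FT-LCG. At the KRT10-high stage KRTDAP stood at 64.1% and 37.1% of its highest level, DMKN at 65.4% and 62.5%, EPPK1 at 94.6% and 100%, and EVPL at 100% in both libraries.

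Within the granular stage of FT-LCG the members parted further. Of its 166 cells, 94 had LOR of 5 to under 20, 21 had 20 to under 50 and 51 had 50 or more; CT-LCG had too few cells to be divided. KRTDAP stood at 251, 258 and 387 UMIs per 10000 in these cells, and DMKN at 78.9, 75.5 and 110. EVPL went the other way, at 1.13, 0.922 and 0.469, the first of which was 1.33-fold (1.07 to 1.62) the KRT10-high level, and so did EPPK1, at 1.43, 1.01 and 0.526. Cells with LOR of 50 or more thus had 3.40-fold the KRTDAP and 1.94-fold the DMKN of KRT10-high cells, but 0.552-fold (0.395 to 0.752) the EVPL and 0.371-fold (0.271 to 0.497) the EPPK1. The EVPL and EPPK1 values of the 51 cells rested on 41 and 46 UMIs, and no second library could be set beside them. All 51 cells belonged to the granular epidermal-like cluster described below, against 43.6% of the cells with LOR of 5 to under 20.

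Because LOR both defined the granular stage and was carried by few cells, the late stage was also set by CST6, which encodes cystatin M/E, an inhibitor of cysteine proteases in the upper epidermis. The same number of cells was taken as above, and 4 of the 20 cells of CT-LCG and 50 of the 166 of FT-LCG were also LOR-positive. KRTDAP was then 2.93-fold and 3.73-fold above the KRT10-high cells, and DMKN 2.06-fold and 2.02-fold, so both were called higher. DMKN passed narrowly, at log2 ratios of 1.04 and 1.01. The share of all genes called in this order is not given here, so the 2 calls have no background beside them. EPPK1 was at 0.562-fold (0.347 to 0.862) and 0.548-fold (0.474 to 0.631), below the KRT10-high cells in both libraries but within the 2-fold limit. EVPL was at 0.985-fold (0.628 to 1.47) and 1.17-fold (1.03 to 1.33). KRTDAP and DMKN were therefore higher and EPPK1 lower in the late cells defined by CST6 in both libraries. These were in part other cells than the LOR-rich ones. In CT-LCG they held LOR at 3.40 per 10000, against 23.0 in KRT10-middle cells of this order. The 23.0 came from 12200 LOR UMIs, of which the leading cell (KRT10 at 119) had 11937, so it rests on 1 cell. In KRT10-high cells of this order LOR was 0.404. In FT-LCG they held 30.6, against 3.82 in KRT10-high cells. The 5 cells of CT-LCG with the most LOR UMIs had CST6 at 14.1, 14.6, 4.51, 127 and 2443. The 5 of FT-LCG had CST6 at 4.14, 12.1, 48.3, 4.78 and 420, and the first 4 lay outside the ordered stages. In the LOR-positive cells of FT-LCG CST6 was higher with more LOR. It stood at 737 with LOR of 5 to under 20, 1069 with 20 to under 50 and 1314 with 50 or more. Among the ordered cells of FT-LCG those richer in LOR were therefore not poorer in CST6. This does not hold for the cells with the most LOR. The first 4 of FT-LCG had 10941, 8514, 4629 and 4445 of its 63140 LOR UMIs, with CST6 at 48.3 or under, against 1034 in the LOR-positive stage. In CT-LCG 91.5% of LOR UMIs lay in 2 cells with CST6 at 14.1 and 14.6, against 337 in that stage.

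A finer division of KRT10, made after the first values were seen, placed the climb of pooled KRTDAP and DMKN levels at lower KRT10. In CT-LCG KRTDAP was 14.6 UMIs per 10000 at KRT10 of 10 to under 25, 29.1 at 25 to under 50, 133 at 50 to under 100 and 101 at 100 to under 200. In FT-LCG the same bins gave 8.11, 23.3, 58.9 and 96.9. Cells of the granular-like cluster with LOR under 5 held much of this. At the KRT10-middle stage they carried 32126 of 58735 KRTDAP UMIs in CT-LCG and 68850 of 86103 in FT-LCG. The median cell of that stage had 43.6 and 25.1 KRTDAP UMIs per 10000, below the pooled 111 and 80.6. The median KRT10-high cell had 94.5 and 83.4. For DMKN the median cell went from 26.9 and 26.2 at KRT10-middle to 44.7 and 42.6 at KRT10-high. From KRT10-middle to KRT10-high the median cell thus rose more than the pooled level for both genes. Above a KRT10 of 200 KRTDAP stayed between 105 and 137 in both libraries while KRT10 rose by definition. EPPK1 in FT-LCG continued upwards, from 1.28 at KRT10 of 200 to under 400 to 2.74 (2.44 to 3.07) in the 100 cells with KRT10 of 800 or more, and EVPL from 0.795 to 1.53 (1.31 to 1.78). In CT-LCG only 13 cells had KRT10 of 800 or more, with EPPK1 at 1.28 (0.925 to 1.74) and EVPL at 1.01 (0.694 to 1.42).

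Shares of cells with a UMI were compared after each cell was thinned to 2000 UMIs. LOR was found in 95% of LOR-positive cells of CT-LCG and 93.4% of FT-LCG, and in 3.70% and 9.60% of KRT10-high cells. The share in non-epithelial cells was 2.07% and 14.9%, so the KRT10-high share of FT-LCG lay below that background. In the basal stage of CT-LCG it was found in 0 of 103 cells, which by the limit of 3 counts allows a share of up to 2.91% (Clopper-Pearson upper bound 3.52%) of thinned cells with a UMI, not of cells that express it; without thinning the share there was 9.71%. KRTDAP was found in 45.6% and 41.2% of basal and in 99.3% and 98.8% of KRT10-high cells, but also in 71.5% and 57.6% of non-epithelial cells, so its basal share was under the background. DMKN went from 38.8% and 43.0% to 99.3% and 98.3%, with a background of 45.6% and 39.2%.

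The plakins were found in fewer cells than KRTDAP and DMKN at every stage. EVPL had a UMI in 3.88% and 5.73% of basal cells, 15.1% and 15.9% of KRT10-high cells and 10.0% and 13.3% of LOR-positive cells. The background was 1.55% and 1.57%. In CT-LCG the basal share (4 cells, 1.07% to 9.65%) and the LOR-positive share (2 cells, 1.23% to 31.7%) overlapped with the background (0.322% to 4.48%). EPPK1 was found in 2.91% and 7.53% of basal cells, 21.3% and 25.1% of KRT10-high cells and 10.0% and 21.1% of LOR-positive cells, with 3.63% and 3.53% in non-epithelial cells. In the FT-LCG cells with LOR of 50 or more the shares were 5.88% for EVPL and 11.8% for EPPK1. The median depth before thinning was 20127 and 12646 UMIs in KRT10-high, 13099.5 and 6901.5 in LOR-positive, and 5003 and 4930 in non-epithelial cells.

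**Figure D3:**
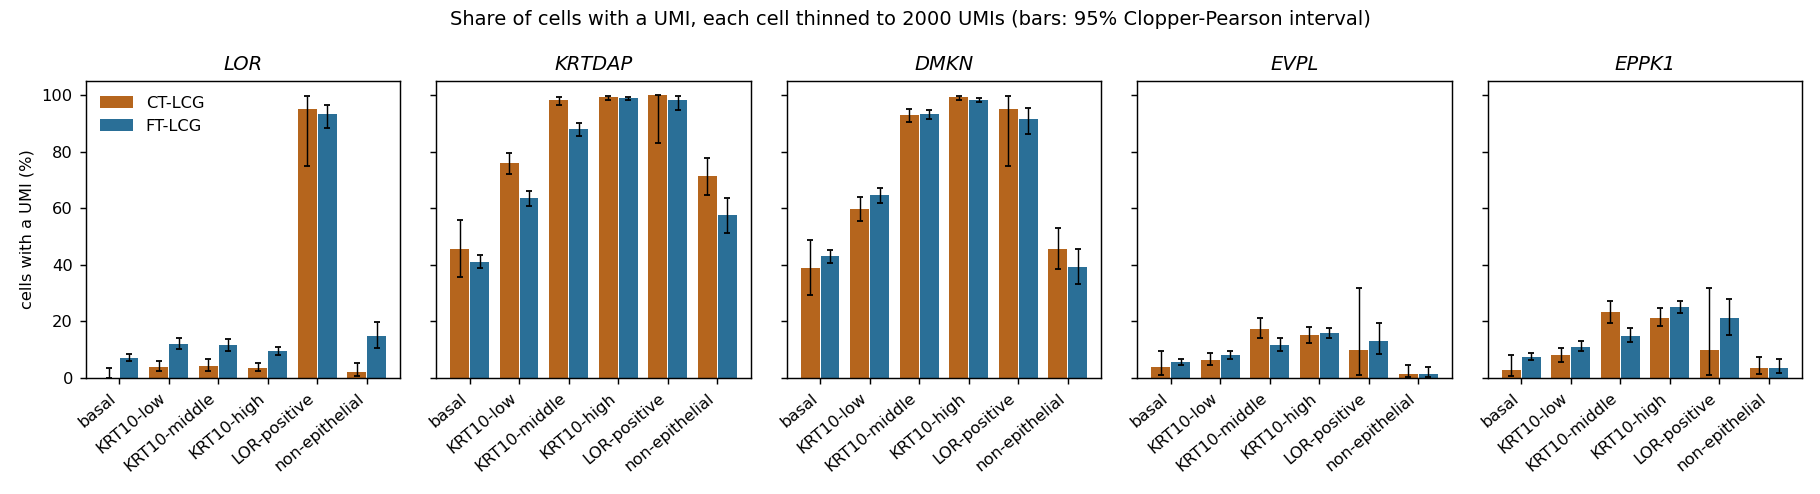
Percentage of cells with at least 1 UMI of each member at each stage and in non-epithelial cells, after each cell was thinned to 2000 UMIs, for both libraries; bars are 95% Clopper-Pearson intervals. KRTDAP and DMKN reach 98.3% or more in KRT10-high cells, and EVPL and EPPK1 stay at 25.1% or under. LOR passes 93% only in the LOR-positive stage, which LOR itself defines.

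Between the libraries, the KRT10-high cells had like levels of the secreted members. The CT-LCG over FT-LCG ratio was 1.01 (1.01 to 1.02) for KRTDAP, 0.977 (0.968 to 0.986) for DMKN, 0.793 (0.733 to 0.858) for EVPL and 0.719 (0.675 to 0.766) for EPPK1. LOR alone of the 5 passed 2-fold, at 0.360 (0.309 to 0.418), higher in FT-LCG, where 4.24% of all genes were called higher in FT-LCG and 7.95% in CT-LCG. Its levels behind that ratio, 0.155 and 0.430, were close to the 0.134 and 0.473 of the non-epithelial cells. Those cells had no limit on LOR and differed between the libraries in the same direction. In the LOR-positive stage the ratio was 0.586 (0.573 to 0.599) for KRTDAP and 0.934 (0.904 to 0.966) for DMKN. In basal cells DMKN was at 0.566 (0.524 to 0.610), and KRTDAP at 0.766 (0.702 to 0.834). KRTDAP was higher in CT-LCG in KRT10-low cells, at 1.41 (1.37 to 1.45), and in KRT10-middle cells, at 1.38 (1.36 to 1.39). DMKN was at 0.744 (0.718 to 0.770) and 1.07 (1.05 to 1.08) in the same stages.

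The cells were also grouped into 13 clusters, and 12 clusters had at least 20 cells in each library. The members, KRT10 and the listed differentiation genes that were no cell type marker were left out of the clustering. Granular markers such as CST6, SBSN and CNFN were not left out, so the clusters were not independent of the differentiation programme. Clusters were named only from fixed marker lists. LOR, KRTDAP and DMKN were each highest in the granular epidermal-like cluster (245 cells of CT-LCG and 804 of FT-LCG). LOR stood at 26.1 and 46.5 UMIs per 10000 there, KRTDAP at 174 and 203, and DMKN at 75.4 and 92.5. The order below it differed between them. KRTDAP and DMKN came next in an unnamed cluster led by KRT4, at 109 and 83.3 for KRTDAP and 52.9 and 43.0 for DMKN, and then in the inner root sheath-like cluster, at 73.2 and 53.8 and at 32.5 and 29.7. The intervals of these 3 clusters did not overlap for either gene. The name of the inner root sheath-like cluster was not stable for FT-LCG. Without the correction for library (Harmony) a cluster of that name held 1439 cells of CT-LCG but only 89 of FT-LCG. An unnamed cluster led by CST6 then held 4 and 1996 cells, with a median of 1118 UMIs in FT-LCG. The levels of the 2136 FT-LCG cells here are therefore not shown to be those of inner root sheath.

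LOR came second in the inner root sheath-like cluster, at 1.09 and 4.66 per 10000, far below the granular-like cells. These cells were shallow, with a median of 1085 and 1132 UMIs, and 1056 and 2136 in number. Next was an unnamed cluster led by KRT6A at 0.671 and 0.740, which overlapped with the inner root sheath-like cluster in CT-LCG and with the fibroblast-like cluster below it in FT-LCG. From there down to the last cluster LOR lay between 0.0962 and 0.904, and neighbours in the order overlapped in at least 1 library.

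EVPL and EPPK1 had another order. By the mean of the libraries both were highest in an unnamed cluster led by TRPV3 (347 and 994 cells), with EVPL at 2.50 and 0.564 and EPPK1 at 4.18 and 0.924 per 10000. On summed UMIs the cluster was at rank 1 for both genes in CT-LCG and at rank 5 in FT-LCG. As a mean over cells, which weights shallow and deep cells alike, it was highest in FT-LCG too, with EVPL at 1.47 against 1.07 in the granular-like cluster and EPPK1 at 2.53 against 2.39 in cells marked as outer root sheath or bulge-like. On summed UMIs in FT-LCG EVPL was highest in the granular-like cluster, at 0.889, and EPPK1 in cells marked as outer root sheath or bulge-like, at 1.29. The granular-like and KRT4-led clusters held EPPK1 at 0.934 and 0.842 in CT-LCG and 1.15 and 1.21 in FT-LCG, and their intervals overlapped in both libraries.

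The level of both plakins in the TRPV3-led cluster of FT-LCG differed with the depth of its cells. The 343 cells under 2000 UMIs had EVPL at 2.61 (2.13 to 3.15) and EPPK1 at 4.94 (4.28 to 5.68), and the 651 deeper cells 0.475 (0.432 to 0.522) and 0.749 (0.694 to 0.806). In CT-LCG EVPL was 3.17 in the shallower and 2.36 in the deeper cells, and EPPK1 3.12 and 4.39. Within the KRT10-high stage the cluster had the highest values of both, with EVPL at 3.11 and 1.89 and EPPK1 at 6.96 and 3.43 in 78 and 82 cells. Depth was not held constant there. The 78 cells had a median of 3729.5 UMIs, against 22538 in KRT4-led cells of CT-LCG. Over all FT-LCG cells EVPL was 1.40 under 1000 UMIs and 0.462 from 20000, and EPPK1 1.96 and 0.685. In CT-LCG both were highest at 2000 to under 5000 UMIs, at 1.45 and 2.43.

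**Figure D4:**
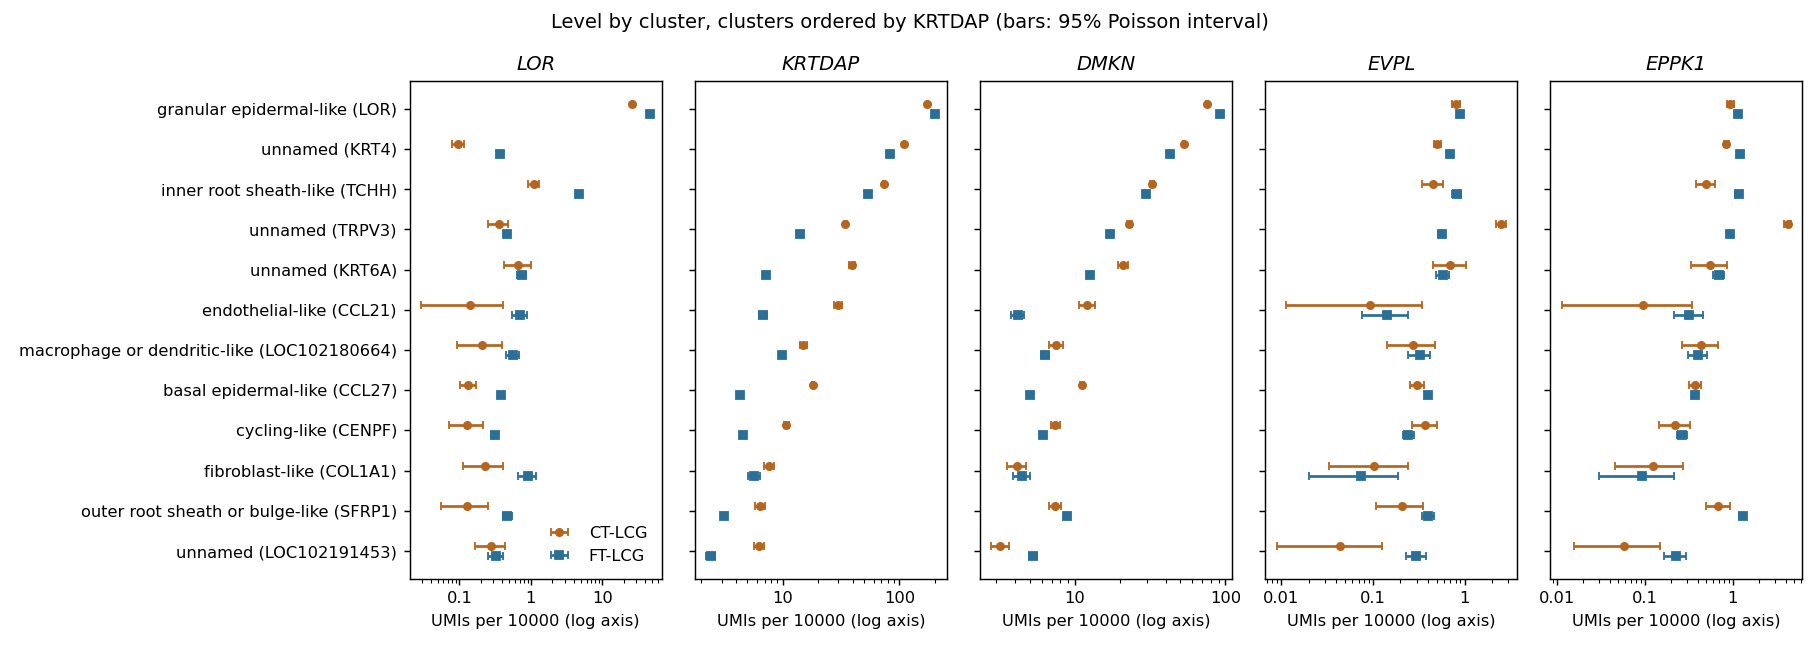
Level of each member in UMIs per 10000 (log axis) in the 12 clusters with at least 20 cells in each library, ordered by KRTDAP, with 95% Poisson intervals, for CT-LCG and FT-LCG. LOR, KRTDAP and DMKN peak in the granular epidermal-like cluster, and EVPL and EPPK1 of CT-LCG peak in the TRPV3-led cluster, at 2.50 and 4.18.

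Cells at the same stage of the KRT10 order differed by cluster. At the KRT10-middle stage KRTDAP was 24.1 and 9.56 per 10000 in the basal-like cluster, 101 and 35.2 in the KRT4-led cluster and 231 and 200 in the granular-like cluster. DMKN at that stage was 15.3 and 12.0, 46.9 and 31.3, and 92.6 and 91.4 in the same clusters. Both genes thus had the same order of the clusters in both libraries at one range of KRT10. Within the granular-like cluster of FT-LCG KRTDAP was 200 at the KRT10-middle, 186 at the KRT10-high and 335 at the LOR-positive stage, while DMKN stayed at 91.4, 94.5 and 97.8. EPPK1 in the same cells was 1.01, 1.55 and 0.905, and EVPL 0.871, 1.09 and 0.825.

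**Figure D5:**
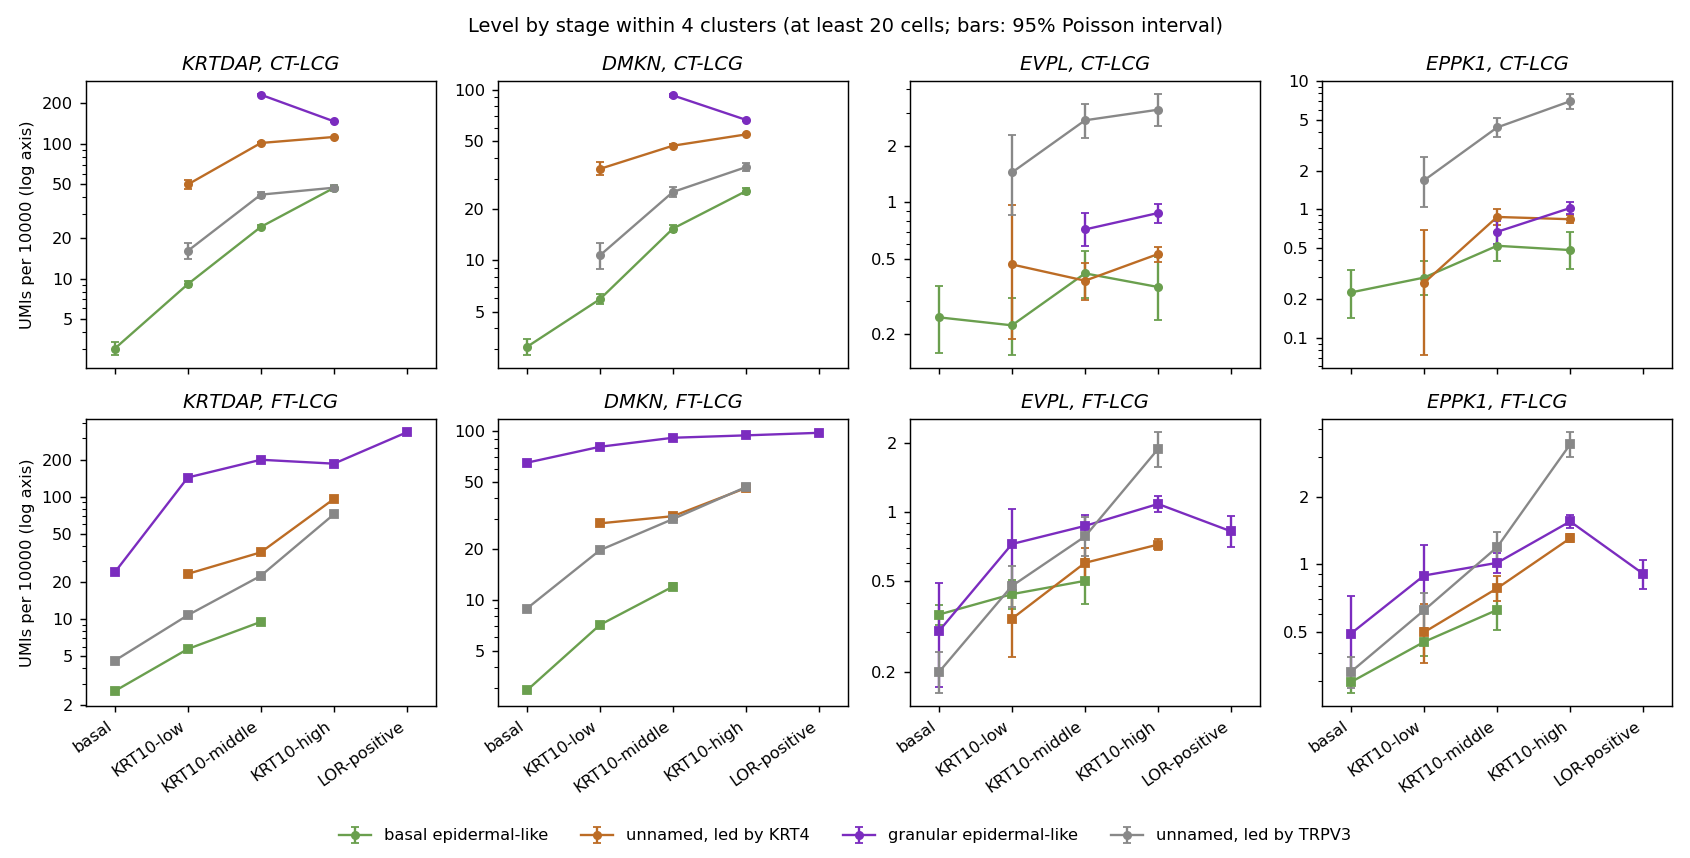
Level of KRTDAP, DMKN, EVPL and EPPK1 by stage, in UMIs per 10000 (log axis), drawn separately for 4 clusters with at least 20 cells at a stage, with 95% Poisson intervals, for each library. At the KRT10-middle stage the granular-like cells lie above the KRT4-led and basal-like cells for KRTDAP (231 against 101 and 24.1 in CT-LCG).

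Across the 12 clusters and both libraries (24 points, which share library and depth within a library), genes most like each member were described by Pearson's r of log2(1 + UMIs per 10000). For LOR these were the 3 uncharacterised genes LOC102176090, LOC108635656 and LOC108635596, with r from 0.981 to 0.983. For KRTDAP they were LOC102175311 at 0.973, KRT10 at 0.959 and LOC102183026 at 0.956. For DMKN they were SBSN (suprabasin, a secreted protein of the upper epidermis) at 0.967, POF1B at 0.938 and LYPD3 at 0.936. EVPL was most like EPS8L2 at 0.927, LOC108634337 at 0.925 and EPPK1 itself at 0.920, and EPPK1 was like KANK1 at 0.939 and EPS8L2 at 0.922. Among the members, KRTDAP and DMKN had an r of 0.933, and LOR was at 0.615 and 0.648 with them but at 0.361 with EVPL and 0.270 with EPPK1.

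KRTDAP, DMKN and SBSN follow each other directly in the gene order of the ARS1.2 reference table. SBSN had KRT10-high over basal ratios of 7.90 and 6.33 and LOR-positive over KRT10-high ratios of 1.73 and 2.16, on the same side as its neighbours. LOR lies between PRR9 and PGLYRP3 in that table. PGLYRP3, which encodes a peptidoglycan recognition protein, was 22.7-fold and 7.46-fold higher in KRT10-high than in basal cells and at 0.963 and 0.872 in the LOR-positive over the KRT10-high stage.

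Other genes of the programme were counted from lists, where early stands for the KRT10-high over the basal stage and late for the LOR-positive over the KRT10-high stage. Of 13 counted envelope precursors other than the members, 8 rose and 1 (S100A10) fell from the basal to the KRT10-high stage, with a median log2 ratio of 1.56 and 1.52. SPRR4, a small proline-rich protein, had ratios of 21.5 and 15.7, and CNFN (cornifelin) 10.5 and 20.4. Involucrin (IVL) had 14.4 in FT-LCG and 35.6 (6.35 to 1413) in CT-LCG, where only 1 UMI was found in basal cells. From the KRT10-high to the LOR-positive stage 5 of the 13 rose (CST6, CNFN, KPRP, SPRR4 and CSTA) and 1 (S100A11) fell, with medians of 0.69 and 1.01. CST6 had ratios of 43.4 and 21.8, and CNFN had 14.5 and 15.7. KPRP had 210 in FT-LCG and 605 UMIs in the LOR-positive cells of CT-LCG, of which 0 remained without the 2 cells richest in LOR; without them SBSN passed in its place and S100A11 did not pass.

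The plakins that were no members did not move as a group. Of 4 counted, PPL (periplakin, the partner of envoplakin, also among the precursors) rose from the basal to the KRT10-high stage, with ratios of 2.97 and 2.32, close to those of EVPL. DST, a plakin of the basal hemidesmosome, fell, with ratios of 0.0561 and 0.0978. DSP (desmoplakin) was at 2.50 and 1.96 and did not pass. In the LOR-positive over the KRT10-high stage 0 of the 4 were called in either direction, and PPL was at 1.49 and 1.64. Of 3 transglutaminases, which cross-link the envelope, TGM5 (10.2 and 6.56) and TGM1 (3.05 and 4.16) rose from basal to KRT10-high cells, and TGM1 alone rose again, at 5.40 and 8.79.

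Genes of corneodesmosomes, the junctions that hold the outermost cells, and of their breakdown were higher again in the LOR-positive cells. Of 7 counted, 5 rose and 1 (CTSV) fell in the KRT10-high over the basal stage, led by KLK7 at 9.62 and 10.6, and 6 rose in the LOR-positive over the KRT10-high stage (5 without the 2 CT-LCG cells richest in LOR). Corneodesmosin (CDSN) had 20.3 and 17.0 in the second comparison, and CASP14, a caspase of cornification, 9.38 and 16.2. ASPRV1, an aspartic protease of the upper epidermis, had 61.5 and 39.8 there, and 2.92 in CT-LCG without the 2 cells richest in LOR. Of 11 barrier lipid genes 8 rose early and 4 late (3 without these 2 cells), among them ALOX12B at 5.40 and 5.69 in the second comparison.

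Of 8 spinous genes 6 rose from the basal to the KRT10-high stage, with KRT2 at 53.7 and 56.3 and KRT1 at 31.5 and 53.5, and DSG3 fell. None of the 8 rose in the LOR-positive stage and 2 (SERPINB5 and DSC3) fell. Of 13 transcription factors 7 rose early, among them GRHL3 at 13.1 and 8.26 and PRDM1 at 4.81 and 4.47, and HOPX alone rose late, at 4.79 and 5.29, while TP63, a factor of basal cells that stands in both the factor and the basal list, fell late. Of 9 basal genes 8 fell early, and of 7 tight junction genes 4 rose early (CLDN1, CLDN23, OCLN and CGN) and CLDN4 alone rose late, at 2.48 and 2.38.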

How the data were processed

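Single-cell suspensions of scapular skin were sequenced from 1 coarse-type and 1 fine-type goat. Per the submitters' processing notes, reads were processed with Cell Ranger 3.0.2 and cells with Seurat 3.1.1. The goat genome build and annotation behind the counting is not given in the labels or methods; those notes name only human and mouse builds. Raw UMI counts per gene and barcode were deposited by the authors, with a table of the cells they kept after quality control and the library of each cell. The names CT-LCG and FT-LCG come from that table; the sample labels do not say which sample is which type, so the 2 samples were put in no group and were described by library. The members and lists were chosen with earlier results of these data known.

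UMIs were summed over the cells of a stage and divided by all UMIs of those cells. Cells with at least 2000 UMIs entered the order. The planned division of the granular stage at LOR of 20 and 50 was merged, since CT-LCG had under 20 cells in each class. Levels have exact Poisson intervals, ratios exact binomial intervals conditional on the sum of both counts, and shares Clopper-Pearson intervals. For calls and medians of ratios 0.5 was added to each UMI count, and the ratios printed have nothing added. A call needed 2-fold in both libraries and more than 3 UMIs on the higher side, the last being added after the data were seen. Non-epithelial cells had VIM of at least 20 per 10000 and at least 3 UMIs of fibroblast, endothelial, T cell, mast cell or macrophage markers. They had no limit on LOR, KRT5, KRT14 or KRT10, could also belong to a stage, and carried keratinocyte RNA. Genes that reached 100 UMIs in both libraries formed the background, and listed genes with at least 50 were counted. Examples from each list were taken from the 3 genes whose smaller ratio of the libraries was largest in a comparison; DST and, where 5 or fewer genes of a list were called, the other called genes were named after their values were seen. For each member the 3 genes of highest correlation were named, except 1 that is not reported here. Without replicates no p-value was computed.

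Counts were log-normalised and 2000 variable genes, 10 components, a Harmony correction for library, 20 neighbours and Leiden clustering at resolution 0.4 gave 13 clusters. Doublets were scored with Scrublet, and cells were left out by that score only as an alternative. 62 genes, with the members among them, were left out of clustering. Of 27137 features, 27103 had an entry in the ARS1.2 RefSeq gene table, which served only for gene order. Finer KRT10 bins, stages within clusters and the split of a cluster by depth were chosen after the data were seen. No sequence of a member is printed. The ratios and intervals were tested on simulated counts. The work ran in Python 3.11.15 with scanpy 1.11.5, scikit-learn 1.9.0, leidenalg 0.10.2 and igraph 0.11.9 for clusters, numpy 2.4.6, pandas 2.3.3 and scipy 1.17.1 for values, and figures in matplotlib 3.10.9. Of 15 alternatives 3 were added after the data were seen.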

Additional observations from a re-analysis of the deposited data

Results flagged for a closer look

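Barcodes that the authors did not keep as cells, 2659 of CT-LCG and 1589 of FT-LCG with a median of 716 and 607 UMIs, entered no comparison above, and each member gave a signal in them above what a count of 0 allows. In CT-LCG these barcodes held LOR at 1.09 UMIs per 10000, KRTDAP at 63.5, DMKN at 26.6, EVPL at 0.313 and EPPK1 at 0.520, against 5.22, 87.3, 41.3, 0.567 and 0.815 in the kept cells. In FT-LCG they held LOR at 11.1, KRTDAP at 48.8, DMKN at 23.8, EVPL at 1.15 and EPPK1 at 1.22, against 7.39, 56.4, 30.2, 0.561 and 0.828 in the kept cells. LOR, EVPL and EPPK1 were therefore higher outside than among the kept cells in FT-LCG and lower in CT-LCG. A single barcode of FT-LCG held 349 LOR UMIs among 1109. Intact cells and free RNA were not told apart in these barcodes.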

How the results depend on the processing

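No paired analysis was possible because each type has 1 library and the libraries share no replicate number. The count of members higher in the KRT10-high than in the basal stage stayed at 4 of 5 under every alternative run but 3-fold for a call, which gave 3. LOR is among the 5, and in the main order the stage rule capped it in both stages. In the LOR-positive over the KRT10-high stage the count of 0 became 2, KRTDAP and DMKN, with the late stage set by CST6. No share of all genes is given for that order. With 3-fold for a call the count of members that differed between the libraries fell from 1 to 0. The 1 was LOR, which the stage rule capped in the KRT10-high cells compared. Without Harmony 3 of the 5 members, in place of 5, had the same leading cluster, and EVPL and EPPK1 moved to a KRT4-led cluster. With each cell thinned to 2000 UMIs LOR could not be compared in the stages before the LOR-positive one. In a thinned cell 1 LOR UMI meets the LOR limit of 5 per 10000, so these stages hold no LOR by construction. Their LOR ratios then come only from the constant added to each count and the UMI totals of the stages. The log2 ratio of KRT10-high over basal in CT-LCG was then -2.96, against 1.20 in the main order. That of CT-LCG over FT-LCG in KRT10-high was 1.27, against -1.47. No change of LOR can be read from these values.

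KRTDAP was placed early in 3, late in 1 and in neither class in 4 of 8 alternatives, DMKN early in 7 and late in 1 (CST6), and EVPL and EPPK1 early in 8. The log2 ratio of LOR-positive over KRT10-high in CT-LCG ranged from -0.33 to 1.55 for KRTDAP, -0.32 to 1.04 for DMKN, -0.62 to 0.71 for EVPL and -0.80 to 0.58 for EPPK1; in FT-LCG it ranged from 0.19 to 1.90, -0.17 to 1.01, -0.27 to 0.42 and -0.86 to 0.30, so KRTDAP there kept its sign and the other values changed sign in at least 1 alternative. Of 320 single values recomputed, 292 kept their sign. The LOR ratios of thinned cells, which hold no LOR before the LOR-positive stage, are among the 320. LOR was late in 7 of the 8 and in neither class with CST6. For the calls of the granular stage 6 alternatives were not run because under 20 LOR-positive cells of CT-LCG were left (FT-LCG was still recomputed), with 15 at 5000 UMIs or more, 7 with doubled limits, 7 with KRT10 of at least 200, 19 without the 5% of highest Scrublet score, 19 without non-epithelial cells and 15 in the 3 epidermal clusters. With 1 library per type and 20 granular cells in CT-LCG, no difference between the types could be tested.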
